A study of Homo sapiens with 10 samples.

Results

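The genes described here are 32 that make cholesterol and fatty acids or set how much of both a cell makes. They were chosen by name, with earlier results of these data known, and looked up by symbol in the gene counts of 12Z cells. All 32 were found among 62750 gene IDs, and all 32 had enough reads to be tested, as did 15740 IDs in all. 12Z is an immortalized line of human epithelial cells that came from endometriosis on the peritoneum, so it stands for 1 line only. The study compared 5 groups of 2 libraries. Before treatment every group was held overnight in medium with 2% charcoal-stripped serum. Cells of 3 groups then received an inhibitor of the kinase JNK for 30 min, followed by 10 ng/ml IL1β for 6 h. The inhibitor was CDD-2728 at 1 or 10 µM in 2 of them, and CDD-3013 at 1 µM in the other. The IL1β group received the solvent DMSO and IL1β, and the vehicle group received DMSO without the cytokine. No group received an inhibitor without IL1β. Libraries were made from poly(A) RNA.

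Cholesterol is built from acetyl-CoA through mevalonate, isoprenoid diphosphates, squalene and lanosterol, and fatty acids are built from the same acetyl-CoA by carboxylation and chain extension. The transcription factors SREBF1 and SREBF2 are made as membrane proteins of the endoplasmic reticulum. When sterols are scarce SCAP carries them to the Golgi, where they are cut and released to the nucleus; when sterols are plentiful INSIG1 and INSIG2 hold SCAP back. Oxysterols, which build up with cholesterol, activate the nuclear receptors LXR, whose best known target is the cholesterol exporter ABCA1.

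Total counts were 16312600 to 19479416 per library. Levels are CPM, counts scaled to a common library size with TMM factors, and are given for each library in turn. A gene is called where edgeR's quasi-likelihood test gave an adjusted p under 0.05 over the 15740 genes, and log2 changes are given with their SE; a signed number in parentheses after a gene is its log2 change. Nothing states that the 2 libraries of a group came from separate cultures, so each p-value rests on a spread between libraries that may be technical alone. As a check of the treatments, the JNK substrate gene JUN stood at 165 and 169 CPM with 1 µM CDD-2728, 76.6 and 86.7 CPM with 10 µM CDD-2728, 127 and 129 CPM with CDD-3013, 308 and 325 CPM with IL1β and 133 and 146 CPM in vehicle. The chemokine CXCL8 was at 1005 and 915 CPM with IL1β and 2.12 and 1.74 CPM in vehicle. Of the cell type markers listed, 5 of 6 epithelial genes (all but EPCAM) and 5 of 5 stromal genes averaged at least 1 CPM, as did 2 of 4 endothelial, 1 of 5 immune and 1 of 3 hepatocyte genes, and 0 of 3 adipocyte genes. Summed over each list, epithelial markers ranged from 8115 to 13466 CPM, stromal ones from 3052 to 4254 CPM and hepatocyte and adipocyte ones from 1.36 to 3.42 and 0 to 0.587 CPM. Single genes made up most of the epithelial, stromal and endothelial sums, namely KRT8, COL1A1 and KDR, with means of 6772, 2800 and 28 CPM.

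All 32 genes were expressed in the vehicle libraries. Per kilobase of exon, the vehicle level of the fatty acid desaturase SCD was 393 ± 33.0 CPM per kb (SD, n = 2), the highest of the 32. Next came the fatty acid synthase FASN (217 ± 23.5 CPM per kb), the citrate lyase ACLY, which supplies acetyl-CoA (168 ± 10.3 CPM per kb), INSIG1 (149 ± 4.03 CPM per kb) and the HMG-CoA synthase HMGCS1 (140.0 ± 11.6 CPM per kb). INSIG1 and HMGCS1 differed by less than the SD of HMGCS1. The lowest levels per length were those of ABCA1 (2.87 ± 0.0587 CPM per kb), INSIG2 (3.36 ± 0.0790 CPM per kb) and the lanosterol demethylase CYP51A1 (6.08 ± 0.307 CPM per kb). The least counted member, the phosphomevalonate kinase PMVK, still had 157 to 308 counts per library.

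The 18 sterol enzymes together held 4251 and 3939 CPM with 1 µM CDD-2728, 3813 and 3392 CPM with 10 µM CDD-2728, 4259.9 and 4179 CPM with CDD-3013, 4181 and 3844 CPM with IL1β and 4373 and 4161 CPM in vehicle. Only the 10 µM CDD-2728 libraries both lay below all 8 others. The 7 fatty acid genes together held 4896 and 5148 CPM with 1 µM CDD-2728, 6013 and 5140.1 CPM with 10 µM CDD-2728, 4967 and 4441 CPM with CDD-3013, 5381 and 4958 CPM with IL1β and 6727 and 5997 CPM in vehicle. On this sum the vehicle libraries overlapped the 10 µM CDD-2728 group and lay above the 6 other libraries.

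**Figure D1:**
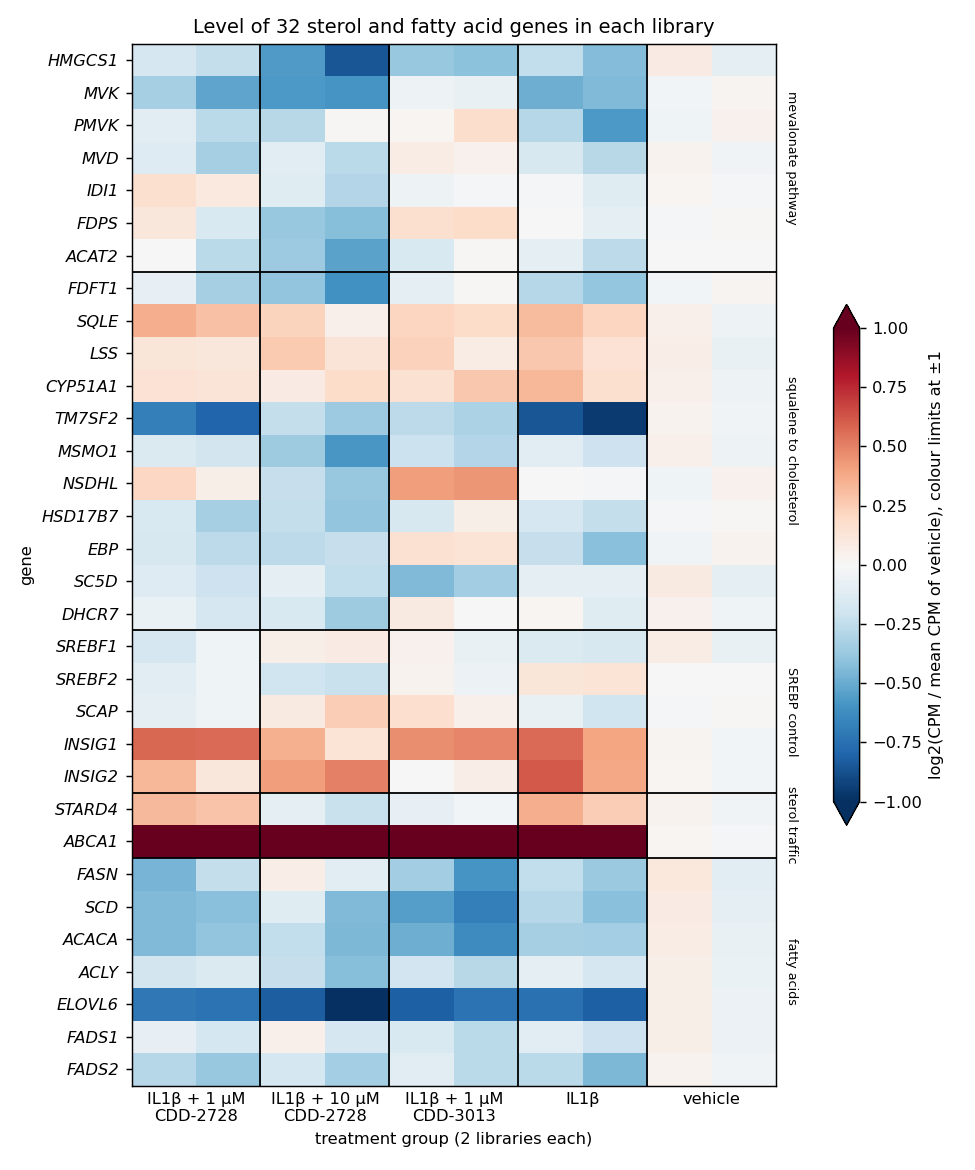
Level of each of the 32 genes in each of the 10 libraries, as log2 of its CPM over the mean CPM of the vehicle group, with colours limited at ±1. Columns are the libraries, 2 per treatment group, and the 3 inhibitor groups also received IL1β; genes are ordered by role. ABCA1 is above the colour limit in all 8 libraries with IL1β, and the fatty acid genes at the bottom are mostly below vehicle there.

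Promoters of 6 genes on which the results below turn are shown to let their letters be compared, 3 of them of genes lower with 10 µM CDD-2728 (HMGCS1, SREBF2 and INSIG1) and 3 of genes higher (the sterol reductase TM7SF2, SREBF1 and ABCA1). Each is the 180 bases before a RefSeq transcription start on GRCh38.p14, read 5′ to 3′ on the gene's own strand. They are HMGCS1 (chr5:43313413-43313592, minus strand), SREBF2 (chr22:41832925-41833104, plus strand), INSIG1 (chr7:155297698-155297877, plus strand), TM7SF2 (chr11:65111692-65111871, plus strand), SREBF1 (chr17:17836987-17837166, minus strand) and ABCA1 (chr9:104928156-104928335, minus strand). Capitals mark the NF-Y box, CCAAT on either strand (ATTGG on the other), and the sterol regulatory element TCACCCCAC.
HMGCS1: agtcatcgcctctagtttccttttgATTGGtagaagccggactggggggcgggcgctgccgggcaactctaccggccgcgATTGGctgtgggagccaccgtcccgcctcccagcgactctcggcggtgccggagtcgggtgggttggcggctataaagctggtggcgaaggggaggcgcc
SREBF2: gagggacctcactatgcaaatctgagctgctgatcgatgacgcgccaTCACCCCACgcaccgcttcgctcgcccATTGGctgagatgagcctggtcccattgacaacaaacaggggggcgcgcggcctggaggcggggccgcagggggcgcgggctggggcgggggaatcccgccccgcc
INSIG1: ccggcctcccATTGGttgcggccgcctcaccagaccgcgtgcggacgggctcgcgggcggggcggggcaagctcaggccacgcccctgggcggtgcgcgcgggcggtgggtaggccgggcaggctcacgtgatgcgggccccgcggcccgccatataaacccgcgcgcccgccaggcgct
TM7SF2: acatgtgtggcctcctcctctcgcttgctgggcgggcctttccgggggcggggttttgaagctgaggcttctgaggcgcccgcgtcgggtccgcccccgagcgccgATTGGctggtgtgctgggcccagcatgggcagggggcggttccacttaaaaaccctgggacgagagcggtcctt
SREBF1: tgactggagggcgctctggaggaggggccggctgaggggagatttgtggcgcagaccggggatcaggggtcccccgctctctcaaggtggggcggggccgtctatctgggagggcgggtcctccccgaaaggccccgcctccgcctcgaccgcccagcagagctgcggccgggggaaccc
ABCA1: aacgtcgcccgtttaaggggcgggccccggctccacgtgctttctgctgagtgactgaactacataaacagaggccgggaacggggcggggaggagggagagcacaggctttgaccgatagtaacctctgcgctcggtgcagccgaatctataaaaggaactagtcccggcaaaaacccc

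HMGCS1 has 2 NF-Y boxes in this stretch, SREBF2, INSIG1 and TM7SF2 have 1 each, and SREBF1 and ABCA1 have 0. The RefSeq table held a promoter for 28 of the 32 genes, the 4 without one being ACAT2, FDFT1, SQLE and FASN. In the 250 bases before any listed start, CCAAT on either strand was in 19 of 28, against 37% of 27305 genes in the table, and the Sp1 box GGGCGG was in 27 of 28, against 46.2%. The sterol regulatory element TCACCCCAC was in SREBF2 alone, against 0.45% of genes; its looser form TCACNCCAC, which the first form meets too, added no member (1.09% of genes). The AP-1 site TGANTCA, the kind of site that JUN binds, was in 0 of 28, against 8.06% of genes, and the LXR element, a direct repeat searched under its name DR4, was in 0 of 28, against 0.0183%. All were searched on both strands. Each figure says only whether those letters stand in that window. The DR4 search allowed no mismatch in the repeat, and only 5 of 27305 genes held it. With a form so rare, 0 of 28 cannot show that ABCA1 or any other member lacks an LXR element. Looser forms of the LXR element were not searched.

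IL1β lowered most of the fatty acid genes and several enzymes of the mevalonate and sterol pathways, and raised ABCA1, the sterol carrier STARD4 and both INSIG genes. Of the 32 genes, 6 were called higher and 12 lower with IL1β than in vehicle, or 18.8% and 37.5%, beside 17.6% and 15% of all genes tested. The median log2 change of the 32 was -0.15, beside -0.01 for all tested genes. The share called higher was thus near that of genes at large and the share called lower was above it. Under the stricter filter (5 CPM in 2 libraries) these shares of the 32 were 15.6% and 37.5%, beside 22.2% and 19.1% of all tested genes. There the share called higher was below that of genes at large. The libraries are bulk RNA of 1 line, where fewer cells expressing a gene and less RNA per cell cannot be told apart. Marker lists are named for cell types, and their sums do not show that such cells were present. Endothelial markers, of which PECAM1 and VWF averaged under 1 CPM, summed to 16.2 and 17.5 CPM with IL1β, against 36.0 and 38.0 CPM in vehicle. Stromal ones summed to 4196 and 4242 CPM, against 4063 and 3802 CPM, and epithelial ones to 9006 and 9119.5 CPM, against 9300.2 and 10070.4 CPM. Genes within a list moved both ways, by group means. KDR (13.7 CPM, against 34.4 CPM), PDGFRB (52.3 CPM, against 125 CPM) and DCN (266 CPM, against 334 CPM) were lower than in vehicle. CDH5 (2.04 CPM, against 1.06 CPM) and VIM (651 CPM, against 415 CPM) were higher. The part of these markers in the result was not tested.

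ABCA1, which passes cellular cholesterol to apolipoprotein A-I (chr9:104781002-104928237, minus strand, GRCh38), showed the largest change of the 32. It stood at 97.5 and 112 CPM with IL1β, against 33.0 and 32.1 CPM in vehicle, and the groups lay far apart (log2 change 1.69 ± 0.09, adjusted p = 4.29e-13). STARD4, which moves cholesterol between membranes, was at 97.2 and 89.9 CPM with IL1β and 77.6 and 74.0 CPM in vehicle (0.30 ± 0.07, adjusted p = 0.00277). INSIG1 (chr7:155297776-155310235, plus strand) was at 807 and 717 CPM with IL1β, against 555 and 535 CPM in vehicle (0.48 ± 0.08, adjusted p = 2.22e-05). INSIG2 (chr2:118088452-118110997, plus strand) was at 20.3 and 17.3 CPM with IL1β, against 13.5 and 13.0 CPM in vehicle (0.51 ± 0.12, adjusted p = 0.00238). In all of these both IL1β libraries exceeded both vehicle libraries, as they did for 33% of all tested genes. The other SREBP genes were not called: SREBF1 was at 194 and 191 CPM with IL1β and 225 and 203 CPM in vehicle (-0.15 ± 0.07, adjusted p = 0.101), and SREBF2 at 474 and 478 CPM with IL1β and 435 and 436 CPM in vehicle (0.13 ± 0.06, adjusted p = 0.134), a difference of -0.05 when library totals were used for scaling. With library totals SREBF1 was called lower (-0.33, adjusted p = 0.00114), and both genes were called once counts were corrected for GC content and transcript length (-0.14 and 0.13, adjusted p = 0.0428 each). SCAP differed by -0.14 ± 0.08.

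Of the 7 fatty acid genes, 5 fell with IL1β and 0 rose, and in all 7 both IL1β libraries were below both vehicle libraries, as they were for 33.7% of all tested genes. The elongase ELOVL6 (chr4:110045846-110199199, minus strand), which lengthens palmitate, was at 44.0 and 41.8 CPM with IL1β, against 76.5 and 70.8 CPM in vehicle (-0.78 ± 0.09, adjusted p = 1.74e-07). FASN (chr17:82078333-82098332, minus strand) was at 1713 and 1570.3 CPM with IL1β, against 2190.2 and 1879 CPM in vehicle (-0.31 ± 0.10, adjusted p = 0.0207). SCD (chr10:100347124-100364834, plus strand) was at 1724 and 1576 CPM with IL1β, against 2232 and 1981 CPM in vehicle (-0.35 ± 0.09, adjusted p = 0.00436). No IL1β library of these 3 genes reached a vehicle library, though the vehicle replicates of FASN and SCD were themselves far apart. The acetyl-CoA carboxylase ACACA (-0.34 ± 0.07) and the desaturase FADS2 of polyunsaturated fatty acids (-0.36 ± 0.08) also fell. Its partner desaturase FADS1 (-0.16 ± 0.08) and ACLY (-0.13 ± 0.07) did not pass the test.

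In the mevalonate steps 4 of 7 genes fell and 0 rose. HMGCS1 (chr5:43289395-43313512, minus strand) was at 552 and 486 CPM with IL1β, against 695 and 618 CPM in vehicle (-0.34 ± 0.09, adjusted p = 0.00417). The mevalonate kinase MVK was at 90.9 and 94.2 CPM with IL1β and 125 and 130.3 CPM in vehicle (-0.47 ± 0.07, adjusted p = 1.85e-05), and PMVK at 12.0 and 9.86 CPM with IL1β and 14.2 and 15.1 CPM in vehicle (-0.42 ± 0.14, adjusted p = 0.0239). The decarboxylase MVD, which follows them, fell by 0.22 ± 0.08. The isomerase IDI1 (-0.07), the farnesyl diphosphate synthase FDPS (-0.04) and the thiolase ACAT2 (-0.17), which makes acetoacetyl-CoA, were not called. ACAT2 shares 52.3% of its exon bases with other genes, SOD2 among them, which changed by 5.21 on the log2 scale; whether reads were counted by strand is not given in the sources used here, so their reads cannot be told apart. IDI1, HMGCS1 and FDPS share 14.8%, 15% and 18.6% of theirs, with antisense genes.

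From squalene to cholesterol, 3 of 11 genes fell and 2 rose with IL1β. TM7SF2 (chr11:65111845-65116384, plus strand), which reduces a sterol double bond after the lanosterol step, was at 44.1 and 41.1 CPM with IL1β, against 81.5 and 77.8 CPM in vehicle (-0.90 ± 0.08, adjusted p = 4.42e-09), the largest fall of the 32. The squalene synthase FDFT1 fell by 0.33 ± 0.08 and the sterol isomerase EBP by 0.32 ± 0.08. The squalene epoxidase SQLE (chr8:124998497-125022283, plus strand), a rate-limiting enzyme, went the other way, at 452 and 422 CPM with IL1β and 376 and 351 CPM in vehicle (0.26 ± 0.07, adjusted p = 0.00559), as did the lanosterol synthase LSS (0.21 ± 0.08), which closes the sterol rings. The 6 not called were CYP51A1 (0.25), the methylsterol oxidase MSMO1 (-0.16), the dehydrogenases NSDHL (-0.01) and HSD17B7 (-0.20), the desaturase SC5D (-0.10) and the last reductase of the pathway, DHCR7 (-0.05). CYP51A1 shares 83.2% of its exon bases with other annotated genes, and HSD17B7 has near-identical pseudogene copies, so both values are uncertain.

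With library totals in place of TMM factors, with which the median log2 change of all tested genes was -0.18, 3 of the 32 were called higher and 23 lower, beside 10.3% and 30.1% of all tested genes, and SQLE (0.09), LSS (0.03) and STARD4 (0.13) lost their calls. MVD lost its call with DESeq2 (adjusted p = 0.0687) and under the GC and length correction (-0.13, adjusted p = 0.17), PMVK with DESeq2 (adjusted p = 0.0587) and LSS under the stricter filter. The calls held in all 12 alternatives for MVK, TM7SF2, INSIG1, ABCA1, ACACA, ELOVL6 and FADS2. Fits with 1 library left out borrow the spread of the other groups and called fewer of all tested genes as well. Part of the loss of calls in those fits is thus shared with genes at large. Whether the 32 lost calls beyond that part was not tested. Calls were lost without IL1β replicate 1 for MVD, SQLE, LSS, INSIG2 and STARD4, without vehicle replicate 2 for PMVK, MVD, SQLE and LSS, and with either vehicle replicate 1 or IL1β replicate 2 left out for HMGCS1, PMVK, MVD, FASN and SCD; FDFT1 and EBP lost theirs without IL1β replicate 2.

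**Figure D2:**
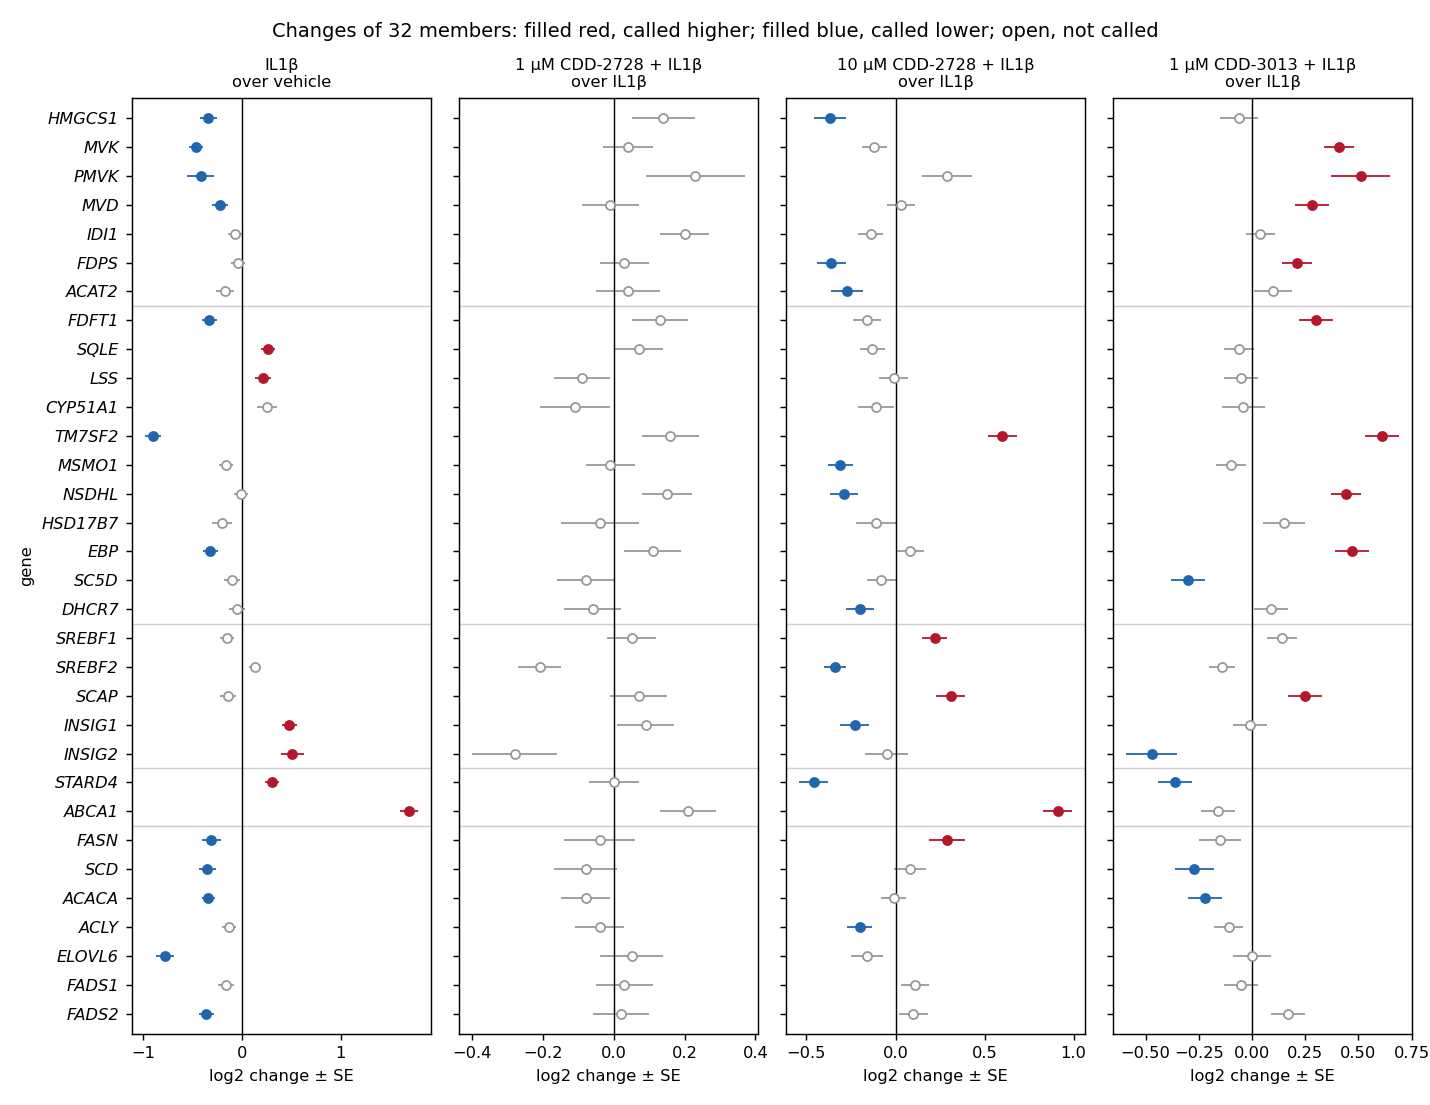
Log2 change of each of the 32 genes, with its SE, for IL1β over vehicle and for each inhibitor group over IL1β. Filled red points are called higher, filled blue points called lower and open points not called; each panel has its own horizontal scale. With IL1β the mevalonate and fatty acid genes lie left of 0 and ABCA1 far to the right. No gene is called at 1 µM CDD-2728, and NSDHL is called lower at 10 µM CDD-2728 and higher at 1 µM CDD-3013.

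The companion lists moved both ways with IL1β, and their counts stand beside 17.6% of all tested genes called higher and 15% called lower. Of 13 genes of sterol uptake and traffic 5 rose and 3 fell. GRAMD1A, which carries cholesterol from the plasma membrane to the endoplasmic reticulum, was at 288 and 288 CPM with IL1β, against 61.4 and 64.5 CPM in vehicle (2.19, adjusted p = 4.06e-17), and NPC1, which exports cholesterol from lysosomes, rose as well (0.43). Of 10 LXR and oxysterol genes 3 rose and 4 fell: CYP7B1, which hydroxylates oxysterols, had 46 and 38 reads with IL1β and 4 and 2 in vehicle, while MYLIP (-0.78) and the receptor gene NR1H3 (-0.95) fell. Of 12 genes of SREBP processing and enzyme decay 4 rose and 1 fell, and of 12 tested isoprenoid genes 1 rose and 2 fell. Of 20 genes of fatty acid supply and esterification 3 rose and 5 fell. The elongase ELOVL7 was at 18.1 and 18.1 CPM with IL1β, against 4.11 and 4.81 CPM in vehicle (2.02, adjusted p = 3.45e-11), and the acyl-CoA synthetase ACSL4 at 361 and 352 CPM, against 192 and 178 CPM in vehicle (0.95, adjusted p = 5.64e-11). ACACB, the mitochondrial acetyl-CoA carboxylase, was at 5.93 and 8.16 CPM with IL1β, against 13.9 and 14.7 CPM in vehicle (-1.03, adjusted p = 1.12e-05).

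At 1 µM, changes of the 32 genes with CDD-2728 were too small for the main test to call, which does not show that there were none. None was called by edgeR, beside 2.03% of all tested genes called higher and 2.57% lower; 4 of the 32 had an unadjusted p under 0.05, and DESeq2 called 1, SREBF2, lower. The median log2 change was 0.03, and the changes ran from -0.28 to 0.23. The 95% interval lay within 0.5 of 0 on the log2 scale for 30 of the 32, and reached furthest for INSIG2 (-0.53 to -0.02) and PMVK (-0.06 to 0.53).

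SREBF2 was at 402 and 423 CPM with 1 µM CDD-2728, against 474 and 478 CPM with IL1β (-0.21 ± 0.06, adjusted p = 0.0687), and ABCA1 at 114 and 129.7 CPM, against 97.5 and 112 CPM with IL1β (0.21 ± 0.08, adjusted p = 0.163). INSIG2 was at 16.7 and 14.3 CPM with 1 µM CDD-2728, against 20.3 and 17.3 CPM with IL1β (-0.28 ± 0.12), and HMGCS1 at 585 and 556 CPM, against 552 and 486 CPM (0.14 ± 0.09). The libraries of these 4 genes did not overlap between the groups, though none passed the test; 23.4% of all tested genes stood apart upward in this way and 24.5% downward. SREBF1 (190.0 and 208 CPM, against 194 and 191 CPM with IL1β), INSIG1 (813 and 806 CPM, against 807 and 717 CPM with IL1β) and SQLE (468 and 446 CPM, against 452 and 422 CPM with IL1β) overlapped. So did FASN (1472 and 1722 CPM, against 1713 and 1570.3 CPM with IL1β) and SCD (1547 and 1576 CPM, against 1724 and 1576 CPM with IL1β). After the counts were corrected for GC content and transcript length, 1 gene, ABCA1, was called higher and 1, SREBF2, lower, and 1, FDFT1, was called higher when the second CDD-2728 library was left out. In the companion lists NPC1 (-0.24) was called lower and MID1IP1, an activator of acetyl-CoA carboxylase (0.31), higher; none of the other genes of those 6 lists was called, beside the 2.03% and 2.57% given above.

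At 10 µM, CDD-2728 lowered genes of cholesterol synthesis and raised the exporter ABCA1. Of the 32 genes, 5 were called higher and 10 lower than with IL1β, or 15.6% and 31.2%, beside 15.6% and 15.9% of all tested genes. The share called higher was thus that of genes at large, and the share called lower was above it. Under the stricter filter these shares of the 32 were 15.6% and 25.0%, beside 20.1% and 19.6% of all tested genes, a smaller excess. The median log2 change of the 32 was -0.11, beside 0.01 for all tested genes. Summed marker genes named for other cell types moved in the same contrast, within this 1 line. Endothelial markers, of which PECAM1 and VWF averaged under 1 CPM, summed to 53.3 and 46.7 CPM with 10 µM CDD-2728, against 16.2 and 17.5 CPM with IL1β. Most of that rise was KDR, at a mean of 46.2 CPM, against 13.7 CPM with IL1β. Stromal markers summed to 3052 and 3203 CPM, against 4196 and 4242 CPM, but did not move together. By group means COL1A1 (2203 CPM, against 3229 CPM) and VIM (503 CPM, against 651 CPM) fell. DCN (327 CPM, against 266 CPM) and PDGFRB (72.3 CPM, against 52.3 CPM) rose. The part of these markers in the result was not tested. All 3 inhibitor groups are set against the same 2 IL1β libraries, which also stand in the contrast with vehicle. A value that is low in those libraries alone would give both a fall with IL1β and a rise with an inhibitor.

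ABCA1 stood at 208 and 187 CPM with 10 µM CDD-2728, against 97.5 and 112 CPM with IL1β (0.91 ± 0.08, adjusted p = 1.64e-08). This was its highest level of the 5 groups. TM7SF2 was at 67.6 and 62.0 CPM with 10 µM CDD-2728, against 44.1 and 41.1 CPM with IL1β (0.60 ± 0.08, adjusted p = 5.33e-06), and both groups were below its vehicle libraries, at 81.5 and 77.8 CPM. FASN was at 2128 and 1879.5 CPM with 10 µM CDD-2728, against 1713 and 1570.3 CPM with IL1β (0.29 ± 0.10, adjusted p = 0.0319). SREBF1, the factor most tied to fatty acid genes, was at 222 and 226 CPM with 10 µM CDD-2728, against 194 and 191 CPM with IL1β (0.22 ± 0.07, adjusted p = 0.0192). SCAP rose by 0.31 ± 0.08.

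SREBF2, the factor most tied to cholesterol genes, moved opposite to SREBF1: it was at 379 and 373 CPM with 10 µM CDD-2728, against 474 and 478 CPM with IL1β (-0.34 ± 0.06, adjusted p = 0.000283). INSIG1 was at 699 and 600.0 CPM with 10 µM CDD-2728, against 807 and 717 CPM with IL1β (-0.23 ± 0.08, adjusted p = 0.0218), and INSIG2 at 17.7 and 18.8 CPM, against 20.3 and 17.3 CPM (-0.05 ± 0.12, not called). STARD4 was at 71.3 and 64.8 CPM with 10 µM CDD-2728, against 97.2 and 89.9 CPM with IL1β (-0.46 ± 0.08, adjusted p = 6.00e-05), the largest fall of the 32. STARD4 and SREBF2 in the 10 µM group lay below their vehicle libraries too, and INSIG1 stayed above its own.

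Among the enzymes, HMGCS1 was at 442 and 362 CPM with 10 µM CDD-2728, against 552 and 486 CPM with IL1β (-0.37 ± 0.09, adjusted p = 0.00248). It had already been lower with IL1β than in vehicle, and the 10 µM libraries were the lowest of all 10. FDPS (158 and 154 CPM, against 207 and 194 CPM with IL1β; -0.36 ± 0.08) and NSDHL (78.5 and 70.8 CPM, against 91.6 and 90.4 CPM with IL1β; -0.29 ± 0.08) fell as well. So did MSMO1 (-0.31 ± 0.07), ACAT2 (-0.27 ± 0.09, with SOD2 at 0.31) and DHCR7 (-0.20 ± 0.08). SQLE was at 424 and 376 CPM with 10 µM CDD-2728 and 452 and 422 CPM with IL1β, and its libraries overlapped (-0.13 ± 0.07, adjusted p = 0.181). The rest of the mevalonate and sterol steps, MVK, PMVK, MVD, IDI1, FDFT1, LSS, CYP51A1, HSD17B7, EBP and SC5D, were not called, with changes from -0.16 to 0.29.

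Of the fatty acid genes, ACLY fell (-0.20 ± 0.07), while FASN rose. SCD was at 1933 and 1550.2 CPM with 10 µM CDD-2728 and 1724 and 1576 CPM with IL1β, and the groups overlapped (0.08 ± 0.09, adjusted p = 0.552). ELOVL6 was at 41.5 and 35.0 CPM with 10 µM CDD-2728 and 44.0 and 41.8 CPM with IL1β (-0.16 ± 0.09, adjusted p = 0.181). ACACA (-0.01), FADS1 (0.11) and FADS2 (0.10) were not called.

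In the promoters described above, CCAAT stood in 9 of 9 genes called lower with 10 µM CDD-2728 that had a promoter, in 1 of 4 called higher (TM7SF2) and in 9 of 15 not called, as a description and with no test. The calls held in all 12 alternatives for FDPS, TM7SF2, SREBF2, STARD4 and ABCA1, and with library totals 5 genes were called higher and 6 lower (15.6% and 18.8%, beside 19.6% and 12.1% of all tested genes). Library totals took the calls of ACAT2, DHCR7, INSIG1 and ACLY, the stricter filter those of DHCR7 and ACLY, and DESeq2 that of DHCR7. Single libraries bore on the rest: 3 higher and 3 lower were called with the first IL1β library left out and again with the second 10 µM library left out, 2 and 8 with the second IL1β library left out, and 3 and 10 with the first 10 µM library left out. The excess of lower calls was gone in the first and second of these: 9.38% of the 32 were called lower, beside 9.84% of all tested genes without IL1β replicate 1 and 10.1% without 10 µM replicate 2. HMGCS1, ACAT2, MSMO1, NSDHL and INSIG1 lost their calls without IL1β replicate 1 or 10 µM replicate 2, SCAP without IL1β replicate 2 or 10 µM replicate 2, DHCR7 and ACLY without any library but 10 µM replicate 1, FASN without any but 10 µM replicate 2, and SREBF1 without any 1 of the 4.

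**Figure D3:**
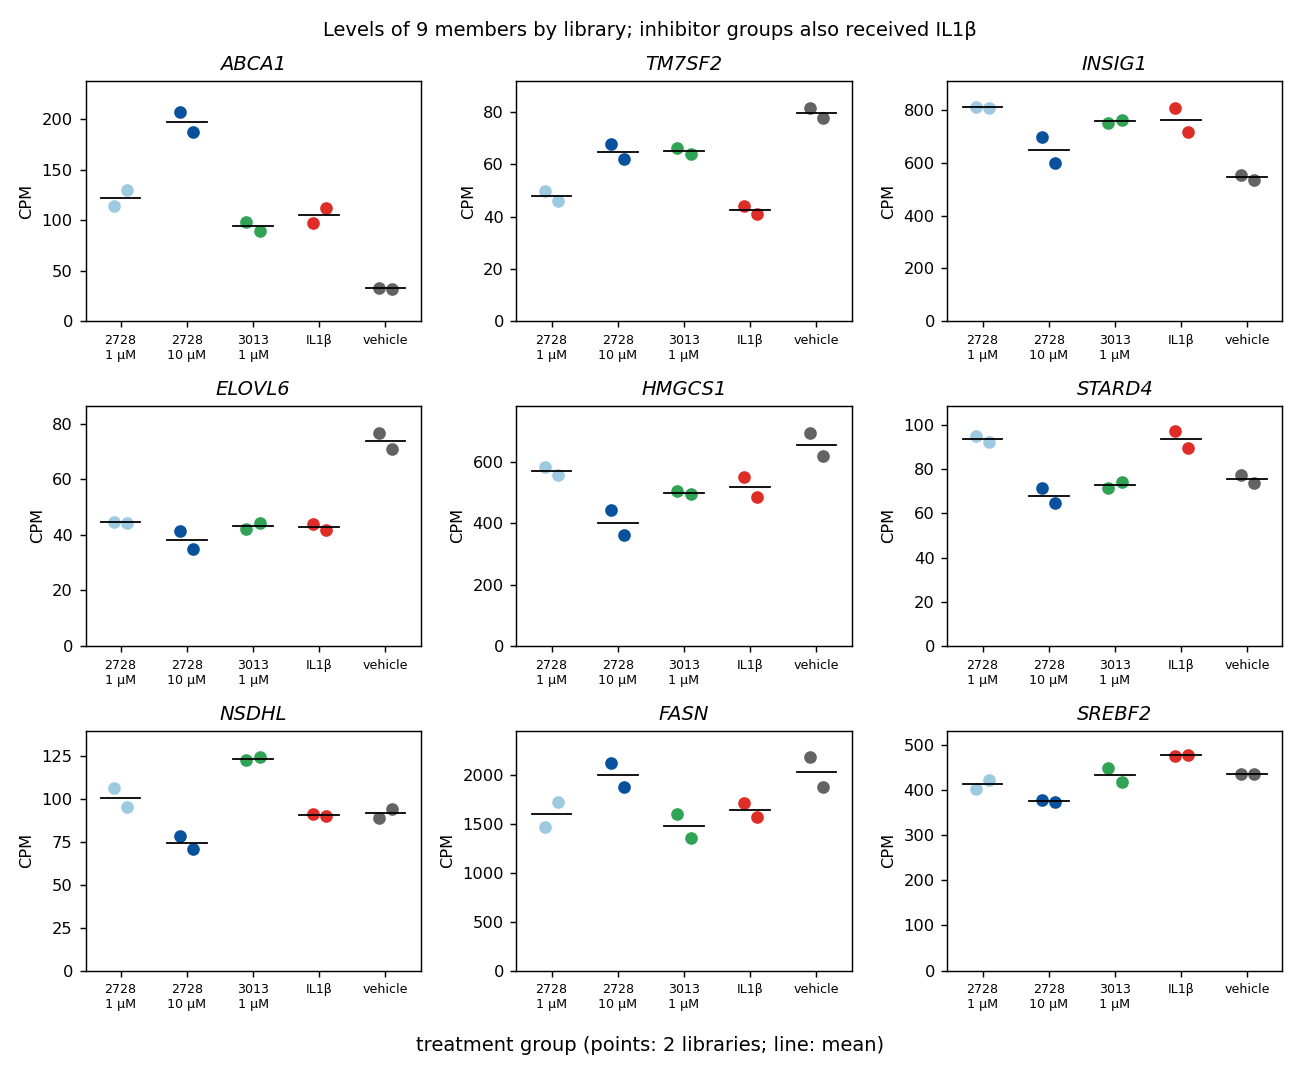
CPM of 9 of the genes in each library (points, 2 per group) with the group mean (line), on axes that start at 0. The groups from left to right are 1 µM CDD-2728, 10 µM CDD-2728, 1 µM CDD-3013 (all 3 with IL1β), IL1β and vehicle. ABCA1 is lowest in vehicle and highest with 10 µM CDD-2728, ELOVL6 is highest in vehicle, and NSDHL is highest with CDD-3013 and lowest with 10 µM CDD-2728.

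Genes around ABCA1 were looked at in a list of 10 LXR and oxysterol genes, also chosen with earlier results of these data known. Its shares beside genes at large are therefore a description and no test of an LXR response. With 10 µM CDD-2728, 5 of the 10 were called higher than with IL1β and 0 lower (median log2 change 0.38), beside 15.6% and 15.9% of all tested genes. The receptor gene NR1H3, which encodes LXRα, was at 9.50 and 9.56 CPM with 10 µM CDD-2728, against 4.64 and 4.52 CPM with IL1β (1.05, adjusted p = 0.000192). The phosphodiesterase gene SMPDL3A, a known LXR target, was at 14.8 and 17.5 CPM, against 9.01 and 7.66 CPM with IL1β (0.94, adjusted p = 6.33e-05). MYLIP, a ubiquitin ligase gene induced by LXR, was at 18.5 and 18.1 CPM, against 11.8 and 9.29 CPM with IL1β (0.79, adjusted p = 0.000127). NR1H3 (-0.95) and MYLIP (-0.78) had fallen with IL1β against vehicle, where ABCA1 rose, in a contrast that uses the same 2 IL1β libraries. The exporter ABCG1 was near the limit of detection, with 14 and 13 reads with 10 µM CDD-2728 and 1 and 2 with IL1β.

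Other lists of the same pathways moved in both directions at 10 µM, where their counts stand beside the same 15.6% and 15.9%. Of 12 genes of SREBP processing and of sterol-driven enzyme decay, 3 rose and 3 fell. RNF145, a ubiquitin ligase of the endoplasmic reticulum, was at 195 and 182 CPM with 10 µM CDD-2728, against 127 and 136 CPM with IL1β (0.52, adjusted p = 3.04e-06). PAQR3, which tethers SCAP and SREBP at the Golgi, was at 33.5 and 31.6 CPM, against 50.4 and 48.0 CPM with IL1β (-0.60, adjusted p = 1.36e-05). Of 12 tested isoprenoid genes 0 rose and 4 fell, the prenyl protease gene ZMPSTE24 (-0.26) among them. Of 20 genes of fatty acid supply and esterification 5 rose and 1 fell. MID1IP1, which activates acetyl-CoA carboxylase, was at 65.5 and 63.4 CPM with 10 µM CDD-2728, against 40.1 and 38.9 CPM with IL1β (0.71, adjusted p = 4.46e-07). The elongase ELOVL1 of very long chains was the 1 that fell (-0.51). Of 13 genes of sterol uptake and traffic 3 rose and 0 fell, the lipoprotein receptor VLDLR (0.47) among them.

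In the main fit, CDD-3013 at 1 µM raised several enzymes of the mevalonate and sterol steps and lowered 5 members, SC5D of the sterol steps among them. Only 5 of these 14 calls were kept once counts were corrected for GC content and transcript length. Of the 32 genes, 9 were called higher and 5 lower than with IL1β, or 28.1% and 15.6%, beside 19% and 17.3% of all tested genes. The median log2 change was 0.00, beside -0.01 for all tested genes. In the mevalonate steps 4 of 7 rose and 0 fell, and from squalene to cholesterol 4 of 11 rose and 1 fell. The share called higher was above that of genes at large, and the share called lower was near it. Under the stricter filter (5 CPM in 2 libraries) the shares of the 32 were the same, beside 25.4% and 23.8% of all tested genes. There the excess of higher calls was small, and the share called lower was below that of genes at large. Epithelial markers summed to 12264 and 13466 CPM with CDD-3013, against 9006 and 9119.5 CPM with IL1β, stromal ones to 3773 and 3511 CPM, against 4196 and 4242 CPM, and endothelial ones to 27.6 and 25.6 CPM, against 16.2 and 17.5 CPM; their part in the result was not tested.

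TM7SF2 was at 66.4 and 64.1 CPM with CDD-3013, against 44.1 and 41.1 CPM with IL1β (0.61 ± 0.08, adjusted p = 8.41e-06). PMVK was at 14.9 and 16.5 CPM with CDD-3013, against 12.0 and 9.86 CPM with IL1β (0.51 ± 0.14, adjusted p = 0.00626). Both genes had fallen with IL1β against vehicle. MVK (124 and 122 CPM, against 90.9 and 94.2 CPM with IL1β; 0.41 ± 0.07) and EBP (70.2 and 69.5 CPM, against 53.8 and 47.2 CPM with IL1β; 0.47 ± 0.08) rose too. NSDHL was at 123 and 125 CPM with CDD-3013, against 91.6 and 90.4 CPM with IL1β (0.44 ± 0.07, adjusted p = 8.19e-05). Unlike the others it had not been called between IL1β and vehicle, and its CDD-3013 libraries were the highest of all 10. FDFT1 (0.30), MVD (0.28), SCAP (0.25) and FDPS (0.21) made up the 9.

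INSIG2 was at 13.3 and 13.9 CPM with CDD-3013, against 20.3 and 17.3 CPM with IL1β (-0.47 ± 0.12, adjusted p = 0.00478), and INSIG1 at 750.2 and 764 CPM, against 807 and 717 CPM (-0.01 ± 0.08, adjusted p = 0.933). The INSIG2 libraries overlapped those of vehicle, at 13.5 and 13.0 CPM, while those of INSIG1 overlapped the IL1β ones. STARD4 was at 71.7 and 74.4 CPM with CDD-3013, against 97.2 and 89.9 CPM with IL1β (-0.36 ± 0.08, adjusted p = 0.000738), and SC5D fell as well (-0.30 ± 0.08). SCD was at 1435 and 1309 CPM with CDD-3013, against 1724 and 1576 CPM with IL1β (-0.27 ± 0.09, adjusted p = 0.0246), and ACACA fell (-0.22 ± 0.08).

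The members not called with CDD-3013 included HMGCS1 (503 and 494 CPM, against 552 and 486 CPM with IL1β), SQLE (422 and 414 CPM, against 452 and 422 CPM with IL1β) and FASN (1603 and 1354 CPM, against 1713 and 1570.3 CPM with IL1β). All 3 overlapped between the groups. SREBF1 (221 and 203 CPM, against 194 and 191 CPM with IL1β; 0.14 ± 0.07) and SREBF2 (447 and 418 CPM, against 474 and 478 CPM with IL1β; -0.14 ± 0.06) did not overlap and did not pass the test. Of all tested genes 33.8% stood apart upward in this way and 34% downward. ABCA1 was at 98.4 and 89.2 CPM with CDD-3013, against 97.5 and 112 CPM with IL1β, with overlap (-0.16 ± 0.08, adjusted p = 0.149). ELOVL6, at 41.9 and 44.2 CPM with CDD-3013 and 44.0 and 41.8 CPM with IL1β, stayed well below vehicle. All 18 uncalled members had a 95% interval within 0.5 of 0.

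With the counts corrected for GC content and transcript length, 6 of the 32 were called higher and 1 lower (18.8% and 3.12%, beside 14.6% and 11.4% of all tested genes), so that the share called in either direction was 21.9%, beside 26%. There MVK, TM7SF2, NSDHL, FDFT1 and SC5D were still called, and ABCA1 (0.18, adjusted p = 0.0485) and ELOVL6 were called higher. MVD (-0.01), FDPS (-0.08) and ACACA (0.07) changed sign, and PMVK (0.08), EBP (0.15), INSIG2 (-0.31), STARD4 (-0.06) and SCD (-0.14) lost their calls, as did SCAP. With library totals 6 were called higher and 7 lower (18.8% and 21.9%, beside 14.5% and 22.5%); MVD, FDPS and SCAP lost their calls, and SREBF2 (-0.22, adjusted p = 0.0127) and ABCA1 (-0.24, adjusted p = 0.0355) were called lower. With 1 library left out, the counts were 9 higher and 1 lower (IL1β replicate 1), 4 and 4 (IL1β replicate 2), 7 and 4 (CDD-3013 replicate 1) and 7 and 3 (CDD-3013 replicate 2). Without IL1β replicate 2 the share called higher, 12.5%, was no longer above that of all tested genes, 13.6%. Calls were lost for SC5D, INSIG2, SCD and ACACA without IL1β replicate 1, for PMVK, MVD, FDPS, FDFT1, SCAP and ACACA without IL1β replicate 2, for FDPS, SC5D and SCAP without CDD-3013 replicate 1, and for PMVK, FDPS, FDFT1, SCD and ACACA without CDD-3013 replicate 2. MVK, TM7SF2 and NSDHL held in all 12 alternatives.

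Of the LXR and oxysterol list 4 of 10 rose and 0 fell with CDD-3013; this and the counts that follow stand beside 19% of all tested genes called higher and 17.3% lower. NR1H3 was at 9.75 and 7.15 CPM with CDD-3013, against 4.64 and 4.52 CPM with IL1β (0.88, adjusted p = 0.00114). NR1H2, which encodes LXRβ, was at 131 and 133 CPM, against 89.5 and 90.4 CPM with IL1β (0.56, adjusted p = 2.10e-05). CH25H, which makes an oxysterol, had 19 and 27 reads with CDD-3013 and 10 and 4 with IL1β. Of fatty acid supply and esterification genes 6 of 20 rose and 5 fell. MID1IP1 rose (0.67), and the phosphatidate phosphatase LPIN1 was at 85.2 and 81.2 CPM with CDD-3013, against 131 and 126 CPM with IL1β (-0.62, adjusted p = 1.06e-05). Of sterol uptake and traffic genes 3 of 13 rose and 2 fell: NPC2, which binds cholesterol in lysosomes, rose (0.61) and its membrane partner NPC1 fell (-0.38). Of SREBP processing and decay genes 1 of 12 rose and 3 fell, and of isoprenoid genes 1 of 12 rose and 1 fell.

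Set directly against 1 µM, 10 µM CDD-2728 gave lower levels of cholesterol genes and a higher level of ABCA1. Of the 32, 4 were called higher and 10 lower at 10 than at 1 µM, or 12.5% and 31.2%, beside 13.3% and 13.8% of all tested genes, so that the share called lower alone stood above that of genes at large. Endothelial markers summed to 53.3 and 46.7 CPM at 10 µM, against 26.8 and 25.5 CPM at 1 µM, and stromal ones to 3052 and 3203 CPM, against 3691 and 4254 CPM; their part in the result was not tested. ABCA1 was at 208 and 187 CPM at 10 µM, against 114 and 129.7 CPM at 1 µM (0.70 ± 0.08, adjusted p = 1.63e-06). HMGCS1 was at 442 and 362 CPM at 10 µM, against 585 and 556 CPM at 1 µM (-0.50 ± 0.09, adjusted p = 0.000201). INSIG1 was at 699 and 600.0 CPM at 10 µM, against 813 and 806 CPM at 1 µM (-0.32 ± 0.08, adjusted p = 0.00303). In none of these did the doses overlap, but 31.6% of all tested genes stood apart upward in this way and 29.6% downward.

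STARD4 (-0.46 ± 0.08), NSDHL (-0.44 ± 0.08), FDPS (-0.39 ± 0.08) and IDI1 (-0.33 ± 0.07) were lower at 10 µM, as were ACAT2, FDFT1, MSMO1 and SQLE (-0.32 to -0.19). SQLE was at 424 and 376 CPM at 10 µM, against 468 and 446 CPM at 1 µM (adjusted p = 0.0455). Higher at 10 µM were TM7SF2 (0.44 ± 0.08), FASN (0.33 ± 0.10) and SCAP (0.24 ± 0.08). SREBF1 (0.17 ± 0.07), SREBF2 (-0.13 ± 0.06), INSIG2 (0.23 ± 0.12) and SCD (0.16 ± 0.09) were not called, with unadjusted 95% intervals of 0.03 to 0.32, -0.27 to 0.00, -0.02 to 0.48 and -0.03 to 0.34. Of the LXR and oxysterol list 5 of 10 were higher at 10 µM and 0 lower, SMPDL3A (0.58) and NR1H3 (0.60) among them, beside the 13.3% and 13.8% of all tested genes. Of isoprenoid genes 0 of 12 were higher and 3 lower, and of sterol uptake and traffic genes 2 of 13 were higher and 1 lower. Of SREBP processing and decay genes 2 of 12 were higher and 3 lower, with RNF145 the most certain (0.59, adjusted p = 1.10e-06). Of fatty acid supply and esterification genes 5 of 20 were higher, MID1IP1 (0.40) among them, and 1 lower, ELOVL1 (-0.33).

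HMGCS1, IDI1, FDPS, TM7SF2, NSDHL, STARD4 and ABCA1 kept their calls in all 12 alternatives. After the length and GC correction 2 were called higher and 14 lower, beside 14.3% and 17.9% of all tested genes: FASN (0.14, adjusted p = 0.0995) and SCAP (0.12, adjusted p = 0.131) lost their calls, and SREBF2 was called lower (-0.21, adjusted p = 0.0013). With library totals SQLE lost its call (-0.12, adjusted p = 0.234) and SREBF1 was called higher (0.25, adjusted p = 0.0167). SQLE also lost its call under the stricter filter, where SREBF1 was called too, and SQLE and SCAP when only the 4 libraries compared were fitted. Without 1 µM replicate 1 the counts were 2 and 7, and without 10 µM replicate 2 they were 4 and 5 (12.5% and 15.6%, beside 8% and 8.39% of all tested genes). FASN lost its call without 1 µM replicate 1 or 10 µM replicate 1, INSIG1 and MSMO1 without 10 µM replicate 2, and ACAT2, FDFT1, SQLE and SCAP without 1 µM replicate 1 or 10 µM replicate 2.

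The 2 compounds could be compared at 1 dose, 1 µM, in 1 pair of groups, with p adjusted over the 15740 genes. There 5 of the 32 genes were called higher and 2 lower with CDD-3013 than with CDD-2728, or 15.6% and 6.25%, beside 9.85% and 8.01% of all tested genes, shares that rest on few genes. Under the stricter filter these shares of the 32 were the same, beside 14.7% and 12.7% of all tested genes. Epithelial markers summed to 12264 and 13466 CPM with CDD-3013, against 10652 and 8899 CPM with CDD-2728. The part of these markers in the result was not tested. TM7SF2 was at 66.4 and 64.1 CPM with CDD-3013, against 49.6 and 46.0 CPM with CDD-2728 (0.45 ± 0.08, adjusted p = 0.00141). MVK was at 124 and 122 CPM with CDD-3013, against 101 and 88.9 CPM with CDD-2728 (0.36 ± 0.07, adjusted p = 0.00215). EBP (0.35 ± 0.08), NSDHL (0.29 ± 0.07) and MVD (0.29 ± 0.08) were higher as well. ABCA1 was at 98.4 and 89.2 CPM with CDD-3013, against 114 and 129.7 CPM with CDD-2728 (-0.37 ± 0.08, adjusted p = 0.00434), and STARD4 at 71.7 and 74.4 CPM, against 94.9 and 92.4 CPM (-0.36 ± 0.08, adjusted p = 0.00302).

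For the other 25 genes the test did not tell the compounds apart, which does not show that they acted alike. The unadjusted 95% interval of the log2 difference lay within 0.5 of 0 for 24 of them, and reached 0.00 to 0.57 for PMVK. For the SREBP genes it was -0.05 to 0.24 (SREBF1), -0.06 to 0.20 (SREBF2), -0.25 to 0.06 (INSIG1) and -0.46 to 0.07 (INSIG2), and for HMGCS1, SQLE, FASN and SCD it was -0.37 to -0.01, -0.28 to 0.02, -0.32 to 0.10 and -0.37 to 0.00. Of the companion lists, 1 of 10 LXR and oxysterol genes was higher with CDD-3013 and 0 lower (NR1H2, 0.43), 1 of 13 sterol uptake and traffic genes was higher (NPC2, 0.36) and 2 lower, and 0 of 12 SREBP processing and decay genes were higher and 2 lower, PAQR3 (-0.36) among them, counts that stand beside the same 9.85% and 8.01%. The list of fatty acid supply and esterification differed most, with 6 of 20 genes higher and 3 lower beside those shares. MID1IP1 (0.37) was among the higher and ACSL4 (-0.29) among the lower. Of 12 isoprenoid genes 0 were higher and 0 lower. JUN was itself lower with CDD-3013 than with CDD-2728 at this dose (-0.38, adjusted p = 0.00166).

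After the length and GC correction only MVK was called (0.27, adjusted p = 0.0191), while the calls over all genes dropped to 610, against 2811 without it. With library totals 4 of the 32 were called higher and 5 lower (12.5% and 15.6%, beside 6.57% and 12.5% of all tested genes). There MVD lost its call, as it did when only the 4 libraries compared were fitted. MVD, NSDHL and ABCA1 lost their calls without CDD-2728 replicate 2 and again without CDD-3013 replicate 2. MVK and EBP lost theirs without CDD-2728 replicate 2, where TM7SF2 and STARD4 kept theirs. MVD also lost its call without CDD-3013 replicate 1. These fits borrow the spread of the other groups and called fewer of all tested genes too. Whether the 32 lost calls beyond that was not tested.

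**Figure D4:**
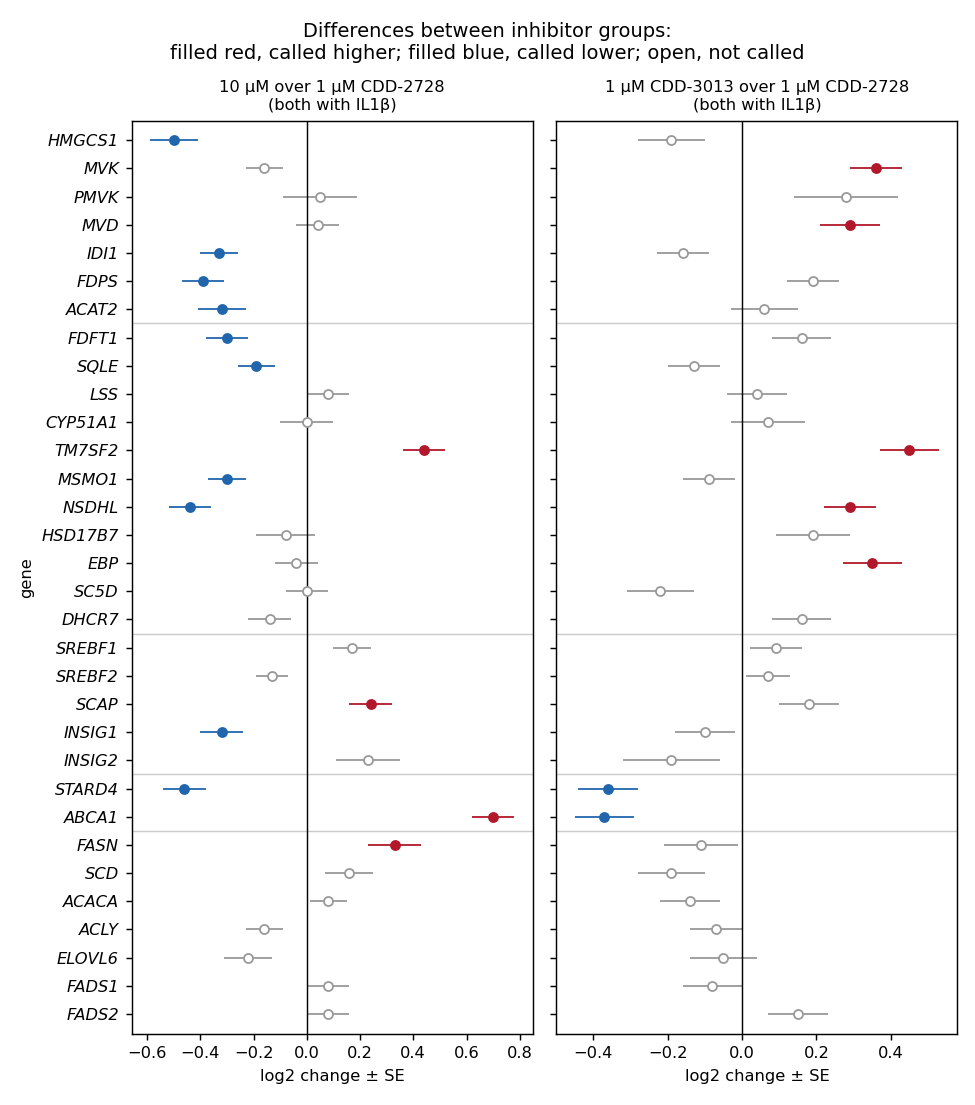
Log2 change of each of the 32 genes, with its SE, for 10 over 1 µM CDD-2728 (left) and for 1 µM CDD-3013 over 1 µM CDD-2728 (right), all groups with IL1β. Filled red points are called higher, filled blue points called lower and open points not called; each panel has its own horizontal scale. ABCA1 lies furthest right on the left panel and furthest left on the right one, and TM7SF2 is called higher in both.

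Over all 5 groups, the levels of 5 genes were ordered as follows, given as a description with no test. ABCA1 was ordered 10 µM CDD-2728, 1 µM CDD-2728, IL1β, CDD-3013 and vehicle, and of these neighbours only IL1β and CDD-3013 overlapped. ELOVL6 had all 8 IL1β-treated libraries between 35.0 and 44.8 CPM, against 76.5 and 70.8 CPM in vehicle. TM7SF2 was highest in vehicle, with CDD-3013 and 10 µM CDD-2728 overlapping below it, and 1 µM CDD-2728 and then IL1β below those without overlap. NSDHL was ordered CDD-3013, 1 µM CDD-2728, vehicle, IL1β and 10 µM CDD-2728, with only vehicle and IL1β overlapping. HMGCS1 ran from vehicle through 1 µM CDD-2728, IL1β and CDD-3013 to 10 µM CDD-2728, with IL1β and CDD-3013 overlapping.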

How the data were processed

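RNA-seq of poly(A) RNA was analysed for 10 libraries of 12Z cells in 5 groups of 2. The deposited table holds raw read counts per gene, made by the authors with fastp, STAR and featureCounts on hg38, per the submitters' processing notes; neither the versions nor the settings, strand included, are given in the sources used here. All 62750 IDs were kept, and none of the table's columns was left out. Counts of 16312600 to 19479416 per library were filtered with edgeR 4.0.16 (filterByExpr, minimum count 10), scaled with TMM (factors 0.9174 to 1.1139) and fitted over all 10 libraries with robust quasi-likelihood in R 4.3.3 (5 residual degrees of freedom, common biological coefficient of variation 0.0604). The Benjamini-Hochberg adjustment ran over all 15740 tested genes in each of 6 comparisons, with a threshold of 0.05, and every adjusted p comes from that test unless another is named. The SE is the log2 change over the root of F, and intervals are 95%.

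The 32 genes, the companion lists and the markers were chosen with earlier results of these data known. Values in every library are given for 9 genes (HMGCS1, SQLE, INSIG1, INSIG2, SREBF1, SREBF2, ABCA1, FASN and SCD) and for any of the 32 called with a log2 change of at least 0.5 in size in a comparison; other genes with values per library were picked to illustrate the counts. Companion genes named were the up to 4 with the smallest adjusted p in a list and comparison. Gene coordinates and lengths are from GENCODE 29 (GRCh38), to which 61918 IDs matched with their version and 754 without it. Promoters are from a RefSeq table (GRCh38.p14). Alternatives were RLE scaling, library totals, no filter, a stricter filter (5 CPM in 2 libraries), DESeq2 1.42.0, a fit of only the libraries compared, a replicate block, a loess correction for GC content and length (span 0.3), and leaving out each library. On simulated counts for IL1β against vehicle (15740 genes), the fit found 93% of 100 genes changed by 1 and 100% of 100 genes changed by 2 on the log2 scale. It made 6 false calls. Changes under 1, the size of nearly all calls among the 32, were not simulated, so the check cannot speak for them.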

Additional observations from a re-analysis of the deposited data

How the results depend on the processing

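Leaving out each library in turn, the number of the 32 genes called was 11 to 14 for IL1β against vehicle, 0 to 1 for 1 µM CDD-2728, 6 to 13 for 10 µM CDD-2728, 8 to 11 for CDD-3013, 9 to 16 for 10 against 1 µM CDD-2728 and 2 to 9 for CDD-3013 against CDD-2728. DESeq2 called 1 gene at 1 µM CDD-2728. The GC and length correction gave 2 at 1 µM CDD-2728, 7 with CDD-3013, and 1 between the compounds. Every other alternative kept these counts within 1.5 times. The calls kept in all 12 alternatives numbered 7 of 18, 0 of 0, 5 of 15, 3 of 14, 7 of 14 and 0 of 7 in the same order.

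Some log2 changes took the opposite sign, those of MVD, FDPS and ACACA with CDD-3013 after having been called. With library totals SREBF2 was at -0.05 with IL1β and INSIG2 at 0.01 with 10 µM CDD-2728. Under the GC and length correction FASN was at 0.07 with 1 µM CDD-2728, and with CDD-3013 HMGCS1 was at 0.04, MVD at -0.01, FDPS at -0.08, ABCA1 at 0.18 and ACACA at 0.07; SREBF1 was at -0.02 between the compounds. INSIG1 was at 0.01 with CDD-3013 without the filter. With 1 library left out, log2 changes ranged from -0.01 to 0.11 (SREBF1) and -0.15 to 0.07 (FASN) with 1 µM CDD-2728, -0.15 to 0.07 (INSIG2) and -0.08 to 0.23 (SCD) with 10 µM, -0.14 to 0.05 (HMGCS1) and -0.09 to 0.09 (INSIG1) with CDD-3013, -0.01 to 0.30 (SCD) between doses and -0.23 to 0.01 (FASN) between compounds. The cause was not tested.

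Taken over genes, no pairing of samples by replicate number was seen. Over 10 pairs of groups, the correlation of deviations from the group mean was -0.114 to 0.0548. The summed sterol enzymes were nevertheless higher in replicate 1 than in replicate 2 in every group. The summed fatty acid genes were so in every group but 1 µM CDD-2728, at 4896 and 5148 CPM. A correlation over genes cannot exclude an offset shared by these sets, which was not tested. With a replicate block the counts in the same order were 18, 0, 15, 15, 14 and 7. With 2 libraries a group the smallest log2 change called was -0.19 (SQLE, between doses), and a group left with 1 library borrows the spread of the others.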

Other observations

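Genes of fatty acid oxidation, which burns the fatty acids that the synthesis genes make, were followed in a list of 16, of which 14 were tested (PDK4 and PPARGC1A were not). With IL1β, 2 rose and 4 fell against vehicle, beside 17.6% and 15% of all tested genes. The dehydrogenase HADH was at 19.2 and 17.9 CPM with IL1β, against 28.8 and 29.7 CPM in vehicle (-0.65, adjusted p = 4.47e-05). With 1 µM CDD-2728 edgeR called 0 of the 14 (2.03% and 2.57% of all tested genes), while with 10 µM CDD-2728 3 rose and 0 fell (15.6% and 15.9%). PPARD, a nuclear receptor that drives fatty acid oxidation, was at 74.0 and 80.4 CPM with 10 µM CDD-2728, against 43.6 and 46.5 CPM with IL1β (0.78, adjusted p = 1.12e-07). With CDD-3013 5 rose and 2 fell (19% and 17.3%). As shares of 14 genes several of these counts lie near those of genes at large. The short-chain dehydrogenase ACADS was at 32.03 and 35.9 CPM with CDD-3013, against 18.9 and 23.2 CPM with IL1β (0.69, adjusted p = 0.000273), and at 26.3 and 19.9 CPM with 1 µM CDD-2728, below CDD-3013 by the test between the compounds (0.55, adjusted p = 0.00571).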
